A study of Arabidopsis thaliana with 38 samples.

Results

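Expansins and xyloglucan endotransglucosylase/hydrolases (XTHs) are the 2 large families of wall-loosening proteins in Arabidopsis thaliana. The 57 loci considered here were 19 alpha-expansins (EXPA), 3 beta-expansins (EXPB), 3 expansin-like A genes (EXLA), 1 expansin-like B gene (EXLB1) and 31 XTH genes, and they were taken by locus from the family names. A member was measured where the array annotation gave a probe set exactly 1 of these loci. That held for 25 of the 57 loci (43.9%), with 1 probe set each, and these are 25 of 22746 probe sets tested. The measured members were 8 EXPA genes (EXPA4, EXPA7, EXPA8, EXPA9, EXPA15, EXPA16, EXPA18 and EXPA20), EXPB1, EXPB2, EXPB3, EXLA1, EXLA2, EXLA3, EXLB1 and 10 XTH genes (XTH16, XTH18, XTH19, XTH20, XTH21, XTH26, XTH27, XTH29, XTH32 and XTH33). The other 32 loci, 11 EXPA and 21 XTH genes, had no probe set named to them alone and were not analysed here.

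Plant cells enlarge when the cell wall yields to turgor. Expansins loosen the contacts between cellulose and matrix polymers without cutting them, and act best in an acid wall, while XTHs cut xyloglucan chains and either rejoin them to another chain or, in a few members, hydrolyse them. EXLA and EXLB proteins share the expansin fold, and no wall-loosening activity is established for them.

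Rosettes of 25-day-old Col-0 plants of 3 lines were compared. The mutant atcsp1-1 affects the gene of the cold shock domain protein CSP1, an RNA-binding protein, and the nature of its lesion is not given in the sources used here. CSP1-FH (35S:AtCSP1-FH#11) expresses a tagged CSP1 and HF-RPL18 (35S:HF-RPL18#12-2-4) expresses a tagged ribosomal protein L18, each from the 35S promoter, which is active in most cell types, and each is 1 line. Cold plants were kept for 12 h at 4 °C under lower light, starting 2 h into the light period, and non-stress plants stayed at 23 °C, so that temperature and light cannot be told apart. Total RNA and polysomal RNA, the mRNA carrying several ribosomes in sucrose gradients, were profiled in all 3 lines, and RNA recovered with an anti-CSP1 antibody (CSP1-IP) in CSP1-FH and HF-RPL18. HF-RPL18 therefore gives recovery with this antibody where CSP1 is the plant's own. Each group had 2 arrays in atcsp1-1 (8 arrays in all) and CSP1-FH (12 arrays) and 3 in HF-RPL18 (18 arrays), and CSP1-IP arrays of atcsp1-1, or of a purification without the antibody, were not analysed here.

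Values are log2 expression values on 38 arrays, made by the authors with RMA. Array medians lay between 4.24 and 4.52. The 10 CSP1-IP arrays stood apart, with a within-group SD over probe sets of 0.490, against 0.263 on the 14 total RNA arrays and 0.300 on the 14 polysomal arrays. Control probes read as a sign of labelled RNA length did not move alike. The 3′ minus 5′ difference of GAPDH was 5.02 to 7.60 on CSP1-IP arrays, against 1.05 to 1.99 on total RNA arrays and 0.790 to 2.42 on polysomal arrays, while that of actin was 2.78 to 4.35, against 3.31 to 4.19 and 3.32 to 4.25. The limma fit weighted arrays by the variance of their RNA pool. Of 12 leaf photosynthetic markers 2 were measured. LHCB4.1, a light-harvesting protein, averaged 12.86 to 12.99 in cold total RNA and 12.93 to 13.05 in non-stress total RNA of the 3 lines. LHCB4.2, its close relative, was higher in cold in all 6 comparisons of total or polysomal RNA, by 0.48 to 0.89, and was called in HF-RPL18 total (0.89 ± 0.23, adjusted p = 0.00533) and polysomal RNA (0.84 ± 0.28, 0.0411). Of 6 guard cell markers, AT1G22690 rose in cold in all 6, by 1.1 to 1.48, and FMA lay at -0.36 to 0.10 with none called. Of 4 trichome markers only TRY was measured, and it fell by 1.94 to 2.23 in total RNA of the 3 lines and by 1.92 in HF-RPL18 polysomal RNA, with -1.49 in atcsp1-1 and -1.20 in CSP1-FH polysomal RNA not called. The part of these marker shifts in the members' cold differences was not tested. No root, root hair, inflorescence or vascular marker of the lists used had a named probe set, so the absence of such tissue was not checked. In these bulk samples, fewer cells of a type and less RNA per cell cannot be told apart.

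Each probe set binds its target with its own efficiency, so levels are compared between groups and not between genes. Of the 25 members, 18 had a mean above 3.10, the 25th percentile of all values, in every one of the 16 groups. The other 7 were above it in some groups. XTH21, XTH26 and XTH29 were above it in no total or polysomal group, and their changes there cannot be read as expression; XTH26 and XTH21 are known from roots. EXPA7 and EXPA18, the root hair expansins, stayed between 2.89 and 4.26 in all total and polysomal arrays.

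Cold raised the EXLA genes, EXPA9 and 4 XTH genes and lowered EXPA4, EXPA8, EXPA16, EXPB1, EXPB3 and EXLB1, each in at least 1 line. In total RNA, limma called 12 members in atcsp1-1 (7 higher, 5 lower in cold), 13 in CSP1-FH (7 higher, 6 lower) and 12 in HF-RPL18 (6 higher, 6 lower) at an adjusted p below 0.05. Of all probe sets tested, 18.3% were called in atcsp1-1 (8.3% higher, 9.98% lower), 16.2% in CSP1-FH (7.71% higher, 8.49% lower) and 22.6% in HF-RPL18 (10.1% higher, 12.5% lower). In polysomal RNA, 7 members were called in atcsp1-1 (3 higher, 4 lower), 7 in CSP1-FH (5 higher, 2 lower) and 11 in HF-RPL18 (7 higher, 4 lower). Of all probe sets, 10.4% were called in atcsp1-1 (4.44% higher, 5.92% lower), 7.93% in CSP1-FH (4.02% higher, 3.91% lower) and 14.5% in HF-RPL18 (6.42% higher, 8.1% lower). Over the 6 comparisons 14 members were called at least once, 8 only as higher and 6 only as lower, and 11 were never called. The share of all probe sets called at least once was not counted, so the 14 cannot be set against it. The members' median difference was near that of all probe sets throughout, for example 0.05 against -0.02 in atcsp1-1 total RNA and 0.14 against 0.01 in HF-RPL18 polysomal RNA. In total RNA 10 members (40%) were called in the same direction in all 3 lines, against 11.9% of all probe sets, and 5 members (20%), EXLA1, EXLA2, XTH33, EXPB1 and EXLB1, were called in all 6 comparisons, against 5.77% of all probe sets. With equal weights for all arrays the total RNA counts were 7 in atcsp1-1 and 6 in CSP1-FH. The calls this ended, also in HF-RPL18, are named with each gene. The shares of all probe sets under equal weights are not given here, so these counts are not read as a result about the members.

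**Figure D1:**
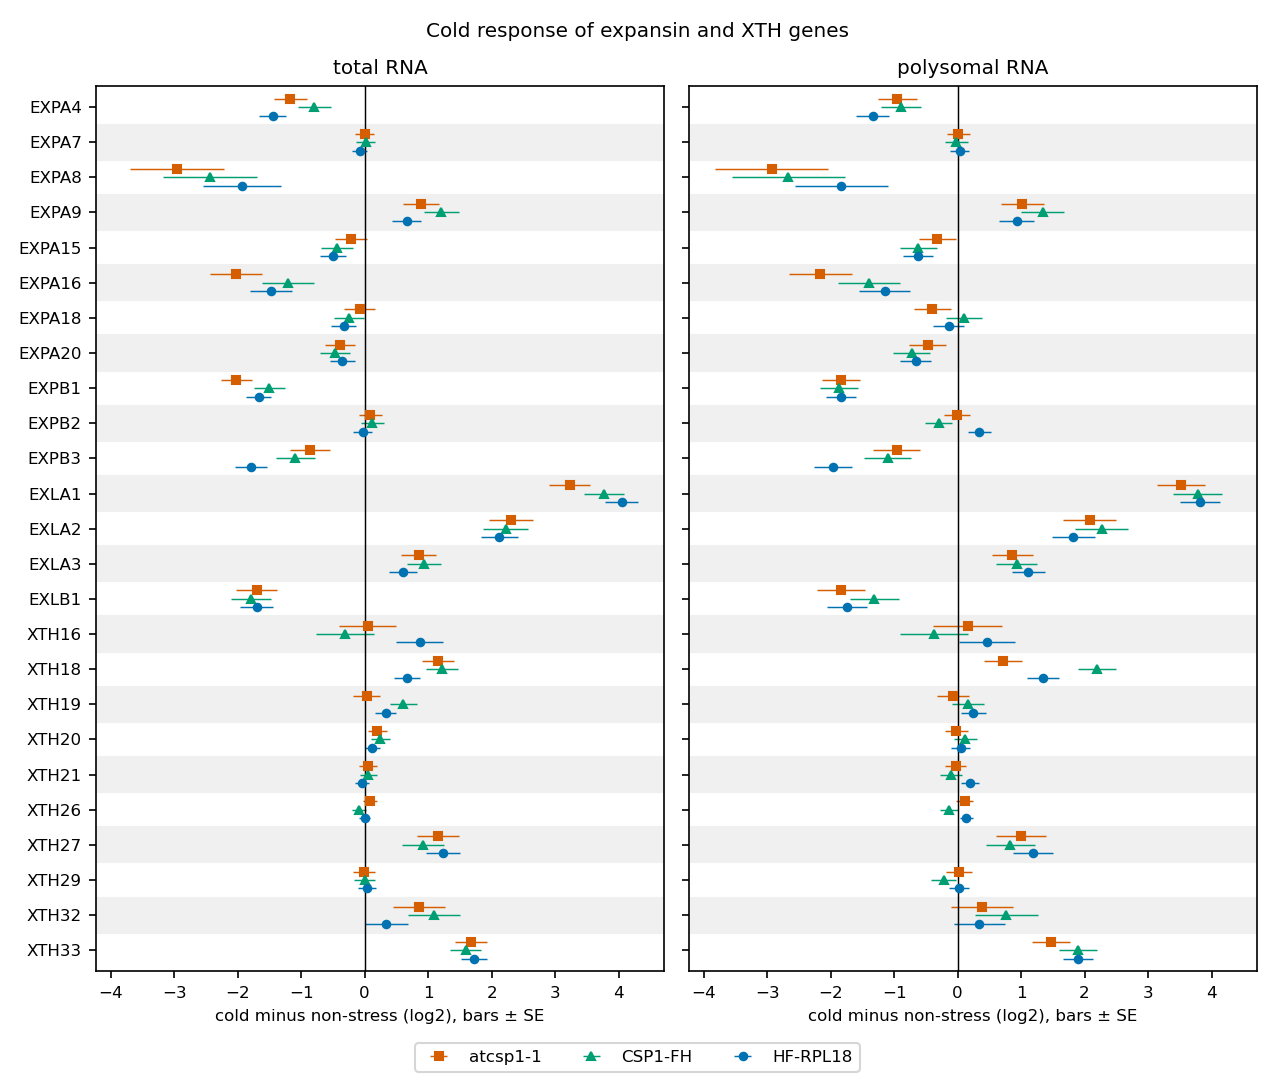
Cold minus non-stress difference (log2) of the 25 measured members in total RNA (left) and polysomal RNA (right), with 1 row per gene and 1 point per line (atcsp1-1 squares, CSP1-FH triangles, HF-RPL18 circles); bars are ± SE from limma. EXLA1 stands far to the right at 3.23 to 4.05, EXPB1 and EXLB1 lie left of 0 in all 6 comparisons, and the points of the 3 lines lie close together for most genes.

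EXLA1 and EXLA2, both expansin-like A genes, showed the largest rises among the members, except that in HF-RPL18 polysomal RNA XTH33 (1.90) rose more than EXLA2 (1.82). EXLA1 (AT3G45970) gave 8.06 and 8.16 in cold atcsp1-1, 8.19 and 8.40 in cold CSP1-FH and 8.27, 8.73 and 8.21 in cold HF-RPL18 total RNA. Its non-stress values were 4.52 and 5.23 in atcsp1-1, 4.33 and 4.73 in CSP1-FH and 3.96, 4.83 and 4.27 in HF-RPL18. Every cold array was high, every non-stress array low, and the groups lay far apart. The difference was 3.23 ± 0.32 in atcsp1-1 (adjusted p = 3.01e-08), 3.77 ± 0.32 in CSP1-FH (adjusted p = 2.04e-09) and 4.05 ± 0.26 in HF-RPL18 (adjusted p = 4.79e-12). On a linear scale EXLA1 was 9.41-fold higher in cold atcsp1-1, 13.6-fold in cold CSP1-FH and 16.6-fold in cold HF-RPL18. Polysomal RNA gave 3.52 ± 0.38 in atcsp1-1, 3.78 ± 0.38 in CSP1-FH and 3.82 ± 0.31 in HF-RPL18.

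EXLA2 (AT4G38400) gave 7.19 and 6.78 in cold atcsp1-1, 7.53 and 6.56 in cold CSP1-FH and 7.21, 6.55 and 6.29 in cold HF-RPL18 total RNA. In non-stress plants it gave 4.90 and 4.45 in atcsp1-1, 4.95 and 4.69 in CSP1-FH and 4.76, 4.40 and 4.53 in HF-RPL18. The rise was 2.31 ± 0.35 in atcsp1-1, 2.22 ± 0.35 in CSP1-FH and 2.12 ± 0.29 in HF-RPL18 in total RNA and 2.08 ± 0.42 in atcsp1-1, 2.27 ± 0.42 in CSP1-FH and 1.82 ± 0.34 in HF-RPL18 in polysomal RNA. No call of EXLA1 or EXLA2 in these 6 comparisons was lost when any 1 array was left out.

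EXLA3 (AT3G45960), the chromosome 3 neighbour of EXLA1, lay near the 3.10 mark. Cold total RNA gave 3.71 and 3.09 in atcsp1-1, 3.65 and 3.45 in CSP1-FH and 3.62, 2.96 and 2.85 in HF-RPL18. Non-stress total RNA gave 2.67 and 2.42 in atcsp1-1, 2.56 and 2.67 in CSP1-FH and 2.37, 2.71 and 2.56 in HF-RPL18, so that in each line cold arrays lay above non-stress arrays, and every non-stress array was under the 3.10 mark. EXLA3 rose in total RNA of atcsp1-1 (0.85 ± 0.27, adjusted p = 0.0266) and CSP1-FH (0.93 ± 0.27, adjusted p = 0.0165) and in polysomal RNA of HF-RPL18 (1.11 ± 0.26, adjusted p = 0.00401). The HF-RPL18 total RNA difference was 0.60 ± 0.22 (adjusted p = 0.0515), and 0.0217 with arrays of the same number paired. The total RNA calls are fragile: that in CSP1-FH was lost without any 1 of its 4 arrays (adjusted p up to 0.117), that in atcsp1-1 without cold array 1 or either non-stress array (up to 0.350), and the polysomal call of HF-RPL18 without cold array 1 (0.0516). Equal weights also ended the total RNA calls in atcsp1-1 (0.307) and CSP1-FH (0.259). Whether the EXLA3 probes also bind EXLA1 transcripts was not tested.

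Among the beta-expansins, EXPB1 (AT2G20750) fell in every comparison. Its cold total RNA values were 3.30 and 3.36 in atcsp1-1, 3.25 and 3.40 in CSP1-FH and 3.32, 3.65 and 3.32 in HF-RPL18. Non-stress total RNA gave 5.59 and 5.12 in atcsp1-1, 5.18 and 4.48 in CSP1-FH and 4.89, 5.34 and 5.07 in HF-RPL18. Every cold array was low, close to the 3.10 mark, and every non-stress array was higher. The difference was -2.02 ± 0.25 in atcsp1-1 (adjusted p = 1.09e-06), -1.50 ± 0.25 in CSP1-FH (8.04e-05) and -1.67 ± 0.20 in HF-RPL18 (5.15e-07), with -1.83 ± 0.30 in atcsp1-1, -1.87 ± 0.30 in CSP1-FH and -1.84 ± 0.24 in HF-RPL18 in polysomal RNA. No call was lost on leaving out 1 array.

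EXPB3 (AT4G28250) fell by 1.79 ± 0.25 in HF-RPL18 total RNA (adjusted p = 5.13e-06), where cold arrays gave 5.19, 4.68 and 4.49, against 7.16, 6.44 and 6.13 in non-stress arrays, and the groups did not overlap. It fell by 1.96 ± 0.30 in HF-RPL18 polysomal RNA (adjusted p = 3.61e-05) and by 1.09 ± 0.31 in CSP1-FH total RNA (adjusted p = 0.0155). The other values were -0.86 ± 0.31 in atcsp1-1 total RNA (adjusted p = 0.0562), -0.96 ± 0.37 in its polysomal RNA and -1.1 ± 0.37 in CSP1-FH polysomal RNA. The CSP1-FH call was lost without either cold array or without non-stress array 1 (adjusted p up to 0.269), and with equal weights (0.126). EXPB2 had no called cold difference, with -0.30 to 0.34 over the 6 comparisons.

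The expansin-like B gene EXLB1 (AT4G17030) also fell in all 6. Cold total RNA gave 3.94 and 4.80 in atcsp1-1, 4.09 and 4.35 in CSP1-FH and 4.41, 4.79 and 4.5 in HF-RPL18. Non-stress total RNA gave 6.43 and 5.71 in atcsp1-1, 6.5 and 5.52 in CSP1-FH and 6.41, 6.07 and 6.31 in HF-RPL18, all above the cold arrays. The difference was -1.70 ± 0.32 (adjusted p = 0.000302) in atcsp1-1, -1.79 ± 0.32 (0.000201) in CSP1-FH and -1.70 ± 0.26 (1.59e-05) in HF-RPL18 in total RNA, and -1.84 ± 0.38 in atcsp1-1, -1.31 ± 0.38 in CSP1-FH and -1.74 ± 0.31 in HF-RPL18 in polysomal RNA. The CSP1-FH polysomal call (adjusted p = 0.0320) was lost without any 1 of its 4 arrays (up to 0.249), with equal weights (0.0662) and in a fit without the CSP1-IP arrays (0.0728), and the other 5 were kept. EXLB1 thus moved opposite to the expansin-like genes EXLA1 and EXLA2 in every line and in both RNA pools. The remaining expansin-like gene, EXLA3, was higher in cold in all 6 comparisons but called in only 3.

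**Figure D2:**
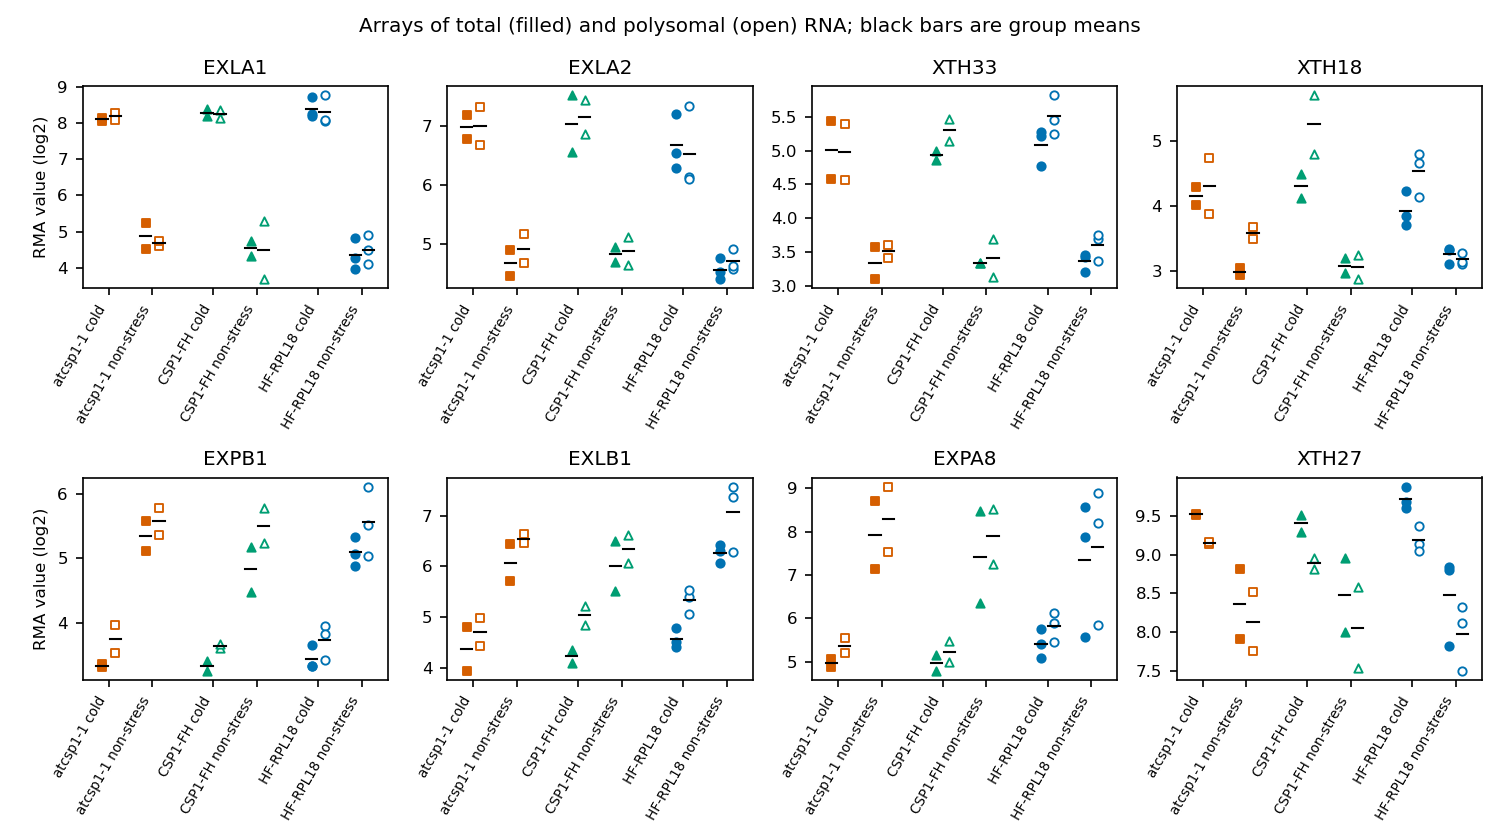
RMA log2 values of 8 members on each total RNA (filled) and polysomal RNA (open) array, with cold left of non-stress in atcsp1-1 (squares), CSP1-FH (triangles) and HF-RPL18 (circles); black bars are group means and each panel has its own scale. EXLA1, EXLA2, XTH33 and XTH18 are higher and EXPB1 and EXLB1 lower in cold arrays, and 1 non-stress HF-RPL18 array of EXPA8, at 5.57 in total and 5.84 in polysomal RNA, lies among the cold arrays.

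Of the 8 alpha-expansins, EXPA4, EXPA8 and EXPA16 fell and EXPA9 rose in total RNA of all 3 lines, and the other 4 were not called. EXPA4 (AT2G39700) gave 6.46 and 6.69 in cold atcsp1-1, 6.89 and 6.69 in cold CSP1-FH and 6.37, 6.24 and 5.84 in cold HF-RPL18. Its non-stress values were 7.50 and 8.00 in atcsp1-1, 7.65 and 7.51 in CSP1-FH and 7.81, 7.94 and 7.06 in HF-RPL18, all higher. It fell by 1.17 ± 0.26 (adjusted p = 0.00178) in atcsp1-1, 0.79 ± 0.26 (0.0371) in CSP1-FH and 1.45 ± 0.21 (8.32e-06) in HF-RPL18 in total RNA and by 1.34 ± 0.26 in HF-RPL18 polysomal RNA (adjusted p = 0.000450). The polysomal differences of -0.95 ± 0.31 in atcsp1-1 (adjusted p = 0.0503) and -0.89 ± 0.31 in CSP1-FH (0.0880) were not called. The CSP1-FH total RNA call was lost without any 1 of its 4 arrays (up to 0.228) and that of atcsp1-1 without non-stress array 2 (0.0575). Both were lost with equal weights, at 0.386 in CSP1-FH and 0.0916 in atcsp1-1.

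EXPA16 (AT3G55500) gave 6.00 and 5.31 in cold atcsp1-1, 6.00 and 5.13 in cold CSP1-FH and 5.97, 5.21 and 5.37 in cold HF-RPL18 total RNA, against 7.51 and 7.87 in atcsp1-1, 6.62 and 6.90 in CSP1-FH and 7.25, 7.64 and 6.08 in HF-RPL18 in non-stress plants. Cold and non-stress arrays did not overlap within any line, although non-stress array 3 of HF-RPL18 was only just above the cold arrays. The fall was 2.03 ± 0.41 (adjusted p = 0.000606) in atcsp1-1, 1.2 ± 0.41 (0.0439) in CSP1-FH and 1.47 ± 0.33 (0.00146) in HF-RPL18 in total RNA and 2.16 ± 0.49 in atcsp1-1 polysomal RNA (0.00360). In HF-RPL18 polysomal RNA the difference was -1.15 ± 0.40, with an adjusted p of 0.0522, and 0.0108 with arrays of the same number paired. In CSP1-FH polysomal RNA it was -1.39 ± 0.49 (0.0874). The CSP1-FH total RNA call was lost without cold array 2 or either non-stress array (up to 0.438), with equal weights (0.198) and without the CSP1-IP arrays (0.0884), and the atcsp1-1 polysomal call without cold array 2 (0.0600).

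EXPA8 (AT2G40610) had the largest falls of the members in total RNA of all 3 lines, with the largest standard errors. Cold total RNA gave 4.88 and 5.07 in atcsp1-1, 5.16 and 4.79 in CSP1-FH and 5.08, 5.40 and 5.75 in HF-RPL18. Non-stress total RNA gave 7.15 and 8.71 in atcsp1-1, 6.36 and 8.47 in CSP1-FH and 5.57, 8.58 and 7.87 in HF-RPL18. Non-stress array 1 was the lowest of its group in all 3 lines, by 1.56, 2.11 and 3.01 below array 2, and in HF-RPL18 it overlapped the cold arrays. EXPA8 fell by 2.95 ± 0.74 in atcsp1-1 (adjusted p = 0.00514), 2.44 ± 0.74 in CSP1-FH (0.0228) and 1.93 ± 0.61 in HF-RPL18 (0.0212). Leaving out 1 array moved the fall to between 1.31 and 2.81 in HF-RPL18, where the call was lost without cold array 1 or 2 or non-stress array 2 or 3 (adjusted p up to 0.171). It was lost in CSP1-FH without either cold array or non-stress array 2 (up to 0.398) and in atcsp1-1 without non-stress array 2 (0.124). The call was also lost with equal weights in CSP1-FH (0.0943) and HF-RPL18 (0.0743), and without the CSP1-IP arrays in CSP1-FH (0.0599) and HF-RPL18 (0.0541). In polysomal RNA the fall of 2.93 ± 0.89 in atcsp1-1 was called (adjusted p = 0.0325), but lost without either cold array or non-stress array 2 (up to 0.314) and without the CSP1-IP arrays (0.0851). The polysomal values of -2.67 ± 0.89 in CSP1-FH (0.0667) and -1.83 ± 0.73 in HF-RPL18 (0.0980) were not called, and the second had an adjusted p of 0.0117 with paired arrays.

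EXPA9 (AT5G02260) rose by 0.89 ± 0.28 in atcsp1-1 (adjusted p = 0.0254), 1.21 ± 0.28 in CSP1-FH (0.00296) and 0.66 ± 0.23 in HF-RPL18 (0.0378) total RNA. Its cold arrays gave 4.54 and 4.96 in atcsp1-1, 4.95 and 4.83 in CSP1-FH and 4.59, 4.92 and 4.33 in HF-RPL18, against 3.44 and 4.28 in atcsp1-1, 3.64 and 3.72 in CSP1-FH and 4.21, 4.26 and 3.39 in HF-RPL18 in non-stress plants. Cold arrays lay above non-stress arrays in each line, in HF-RPL18 only narrowly. It rose by 1.34 ± 0.34 in CSP1-FH (0.0111) and 0.93 ± 0.27 in HF-RPL18 (0.0211) polysomal RNA, and the atcsp1-1 difference there was 1.02 ± 0.34 (0.0505). Except in CSP1-FH total RNA, these calls were lost on leaving out single arrays: in atcsp1-1 total RNA cold array 2 or non-stress array 1 (up to 0.437), in HF-RPL18 total RNA cold array 1 or 2 or non-stress array 3 (0.307), in CSP1-FH polysomal RNA either cold array or non-stress array 2 (0.118), and in HF-RPL18 polysomal RNA cold array 1 or 2 or non-stress array 2 or 3 (0.115). The EXPA9 calls in total RNA of atcsp1-1 and HF-RPL18 were also lost with equal weights (0.132 and 0.161) and without the CSP1-IP arrays (0.0578 and 0.0757), as was the HF-RPL18 polysomal call without the CSP1-IP arrays (0.0520). EXPA15 and EXPA20 were lower in all 6 comparisons, by 0.22 to 0.62 and by 0.35 to 0.72, with none called. With paired arrays in HF-RPL18 the EXPA15 differences of -0.50 in total and -0.62 in polysomal RNA had adjusted p = 0.00124 and 0.00130, and the EXPA20 polysomal difference of -0.66 had 0.0356.

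The XTH genes that passed the test, XTH18, XTH19, XTH27 and XTH33, all rose. XTH33 (AT1G10550), predicted to be anchored in the plasma membrane, gave 4.58 and 5.44 in cold atcsp1-1, 5.00 and 4.86 in cold CSP1-FH and 4.77, 5.27 and 5.21 in cold HF-RPL18 total RNA. The non-stress values were 3.10 and 3.57 in atcsp1-1, 3.34 and 3.34 in CSP1-FH and 3.43, 3.21 and 3.46 in HF-RPL18, all lower. It rose by 1.67 ± 0.25 (adjusted p = 1.51e-05) in atcsp1-1, 1.59 ± 0.25 (3.51e-05) in CSP1-FH and 1.72 ± 0.20 (2.80e-07) in HF-RPL18 in total RNA and by 1.47 ± 0.30 in atcsp1-1, 1.90 ± 0.30 in CSP1-FH and 1.90 ± 0.24 in HF-RPL18 in polysomal RNA. The atcsp1-1 polysomal call alone was lost on leaving out 1 array, cold array 2 (adjusted p = 0.0740).

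XTH18 (AT4G30280), best known from roots, lies beside XTH19 on chromosome 4. In total RNA it gave 4.30 and 4.02 in cold atcsp1-1, 4.13 and 4.5 in cold CSP1-FH and 4.24, 3.71 and 3.85 in cold HF-RPL18, against 2.94 and 3.05 in atcsp1-1, 3.20 and 2.98 in CSP1-FH and 3.33, 3.34 and 3.12 in HF-RPL18 in non-stress plants. The non-stress arrays were near background and below all cold arrays. XTH18 rose by 1.16 ± 0.25 (adjusted p = 0.00138) in atcsp1-1, 1.22 ± 0.25 (0.000976) in CSP1-FH and 0.67 ± 0.21 (0.0178) in HF-RPL18 in total RNA. In polysomal RNA it rose by 2.19 ± 0.30 in CSP1-FH (1.72e-05), where cold arrays gave 4.81 and 5.71 and non-stress arrays 2.88 and 3.25, and by 1.35 ± 0.25 in HF-RPL18 (0.000259). The atcsp1-1 polysomal difference was 0.72 ± 0.30 (0.148). The HF-RPL18 total RNA call was lost without cold array 1 or non-stress array 3 (up to 0.123). With equal weights all 3 total RNA calls of XTH18 were lost, at 0.0708 in atcsp1-1, 0.0625 in CSP1-FH and 0.228 in HF-RPL18. XTH19, implicated in freezing tolerance, gave 3.42 and 3.20 in cold and 3.06 and 2.34 in non-stress CSP1-FH total RNA, and its rise of 0.61 ± 0.21 (0.0431) was lost without either cold array or non-stress array 2 (up to 0.638), with equal weights (0.230) and without the CSP1-IP arrays (0.0806); no other line or pool had it called.

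XTH27 (AT2G01850) acts in the tracheary elements of leaf veins. Cold total RNA gave 9.52 and 9.51 in atcsp1-1, 9.29 and 9.51 in CSP1-FH and 9.60, 9.87 and 9.67 in HF-RPL18, against 8.81 and 7.92 in atcsp1-1, 8.95 and 8.01 in CSP1-FH and 8.80, 7.82 and 8.84 in HF-RPL18 in non-stress plants. Non-stress array 2 was the lowest in each line, by 0.89, 0.94 and 0.98 below array 1. XTH27 rose by 1.15 ± 0.33 in atcsp1-1 (adjusted p = 0.0132) and 1.23 ± 0.27 in HF-RPL18 (0.00102), and by 1.19 ± 0.32 in HF-RPL18 polysomal RNA (0.0105). The CSP1-FH total RNA difference was 0.92 ± 0.33 (0.0535), and the polysomal differences were 1.00 ± 0.39 in atcsp1-1 and 0.83 ± 0.39 in CSP1-FH. Without either cold array or non-stress array 2 the atcsp1-1 call was lost (up to 0.285), as it was with equal weights (0.0930), and without cold array 2 or non-stress array 2 the HF-RPL18 polysomal call (up to 0.0846). XTH32, a group III XTH thought to hydrolyse xyloglucan, was higher in cold in all 6 comparisons, by 0.34 to 1.1, with none called; its non-stress array 2 was lower than array 1 by 0.83 in atcsp1-1, 1.04 in CSP1-FH and 1.3 in HF-RPL18. XTH16 differed by 0.87 ± 0.37 in HF-RPL18 total RNA (adjusted p = 0.0983, and 0.0214 with paired arrays) and by -0.37 to 0.46 elsewhere. XTH20, XTH21, XTH26 and XTH29 had no called cold difference in total or polysomal RNA and spanned -0.22 to 0.25.

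The comparison of lines asked whether these responses differed in the mutant or in the line with tagged CSP1. The cold response of each member was subtracted between lines, and no member was called: 0 of 25 for atcsp1-1 or CSP1-FH against HF-RPL18, in total or polysomal RNA. The same limma test called 0 of all probe sets in each of these 4 comparisons, with 2.14% to 3.33% at an unadjusted p below 0.05. Unadjusted, 1 member in total RNA of atcsp1-1, 0 in total RNA of CSP1-FH, 1 in polysomal RNA of atcsp1-1 and 2 in polysomal RNA of CSP1-FH passed 0.05. EXLA1 rose less in atcsp1-1 than in HF-RPL18 total RNA by 0.82, with a 95% interval of the difference from -1.66 to 0.03. For XTH33 the interval in this comparison was -0.70 to 0.61 and for EXPB1 -1.02 to 0.31. EXPB3 fell less in atcsp1-1, with a difference of 0.93 (interval 0.10 to 1.76, unadjusted p = 0.0287) in total and 1.00 (0.01 to 1.99, 0.0479) in polysomal RNA, and an adjusted p of 1 in both. EXPA8 differed by -1.03 ± 0.96 in total and -1.1 ± 1.15 in polysomal RNA of atcsp1-1, and EXPA16 by -1.01 ± 0.63 in the second. For CSP1-FH against HF-RPL18 the largest differences were -1.18 ± 0.58 for XTH16 and 0.76 ± 0.53 for XTH32 in total RNA, and 0.86 ± 0.48 for EXPB3, -0.84 ± 1.15 for EXPA8 and 0.84 ± 0.39 for XTH18 in polysomal RNA.

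Levels were also compared directly between lines, and again 0 of 25 members were called in any of the 8 comparisons, where limma called 0.00879% to 0.022% of all probe sets. Between 0 and 3 members a comparison passed an unadjusted p of 0.05, a looser mark than that of these shares. The share of all probe sets at this looser mark is not given here, so these counts are not read as a result about the members. In cold total RNA, EXPB3 averaged 5.54 in atcsp1-1 and 5.64 in CSP1-FH, against 4.79 in HF-RPL18, differences of 0.75 ± 0.28 and 0.85 ± 0.28 (adjusted p = 1 and 0.640). EXPA4 (0.63 ± 0.24) and XTH32 (0.63 ± 0.38) came next in cold CSP1-FH total RNA, and EXPA8 (-0.44 ± 0.68) in cold atcsp1-1. EXPA16 differed by 0.70 ± 0.37 in total and 0.77 ± 0.45 in polysomal RNA of non-stress atcsp1-1, with XTH16 at 0.66 ± 0.41 and EXPA8 at 0.64 ± 0.81 beside it. XTH16 averaged 5.61 in non-stress CSP1-FH, against 4.48 in non-stress HF-RPL18, a difference of 1.14 ± 0.41 (adjusted p = 1), with EXPB1 at -0.27 ± 0.23. The largest polysomal differences were 0.88 ± 0.34 for EXPB3 and 0.72 ± 0.28 for XTH18 in cold CSP1-FH, 1.16 ± 0.50 for XTH16 and -0.73 ± 0.35 for EXLB1 in non-stress CSP1-FH, and -0.63 ± 0.35 for EXLB1 and -0.53 ± 0.27 for XTH33 in cold atcsp1-1. CSP1 itself had no named probe set, so the mutant and the tagged line were not checked by its transcript.

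How far each transcript was enriched among mRNAs with several ribosomes was read from polysomal minus total values within a line and condition. Most expansins leaned towards the polysomal pool, and only EXPA20 and EXPB2 passed the test, each once. Limma called 0 members in cold atcsp1-1, CSP1-FH and HF-RPL18, against 1.49% (0.18% higher, 1.31% lower), 1.86% (0.339% higher, 1.52% lower) and 13.6% (5.11% higher, 8.47% lower) of all probe sets. In non-stress plants it called 0 members in atcsp1-1, 1 in CSP1-FH and 1 in HF-RPL18, against 0.651% (0.11% higher, 0.541% lower), 4.45% (1.26% higher, 3.19% lower) and 7.43% (2.6% higher, 4.83% lower) of all probe sets. Members with an unadjusted p below 0.05 numbered 1, 3 and 8 in cold atcsp1-1, CSP1-FH and HF-RPL18, and 1 in non-stress atcsp1-1. These unadjusted counts are not comparable with the adjusted shares. The share of all probe sets at the unadjusted mark is not given here, so the counts are not read as a result about the members. The 2 calls were EXPA20, at 5.31, 5.08 and 5.71 in polysomal and 4.45, 4.43 and 4.48 in total RNA of non-stress HF-RPL18 (0.92 ± 0.22, adjusted p = 0.0100), and EXPB2, at 3.57 and 4.43 in polysomal and 3.22 and 3.13 in total RNA of non-stress CSP1-FH (0.82 ± 0.20, adjusted p = 0.0160). Polysomal arrays of both lay above total RNA arrays. The EXPA20 call was lost without polysomal array 3 (adjusted p = 0.0932) and the EXPB2 call without polysomal array 2 or either total RNA array (up to 0.489). Both were lost with equal weights, EXPA20 at 0.210 and EXPB2 at 0.193.

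The median difference of the members was 0.16 to 0.29 in the 6 groups, against 0.01 to 0.06 over all probe sets. Between 76% and 88% of members were positive, against 51.7% to 58.0% of all probe sets. The 3 EXPB genes, EXLA3, EXLB1, XTH16, XTH32 and every alpha-expansin but EXPA18 were positive in all 6 groups, with EXPB3 at 0.45 to 0.85, EXLB1 at 0.33 to 0.82 and XTH32 at 0.33 to 0.87. The largest values not called were 0.56 for EXPA9 in cold atcsp1-1, 0.95 for XTH18 in cold CSP1-FH (adjusted p = 0.0775), 0.76 for EXLB1 in cold HF-RPL18 (0.0787), 0.87 for XTH32 in non-stress atcsp1-1, 0.78 for EXPA20 in non-stress CSP1-FH (0.0951) and 0.85 for EXPB3 in non-stress HF-RPL18 (0.0618). XTH27 alone was negative in all 6, at -0.54 to -0.23 with none called, and XTH19 was negative in 5. The median difference of the 10 XTH genes was 0.01 to 0.15, against 0.28 to 0.44 for the 8 EXPA genes. The strongly cold-induced EXLA1 showed no shift, with -0.21 to 0.14. With arrays of the same number paired, 5 members passed in cold HF-RPL18 (22.6% of all probe sets): EXPA4 (0.57, adjusted p = 0.0404), EXPA9 (0.63, 0.00390), EXPA20 (0.61, 0.0346), EXPB3 (0.68, 0.0322) and XTH18 (0.60, 0.0335). In non-stress HF-RPL18, EXPB3 then also passed (0.85, 0.0120).

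**Figure D3:**
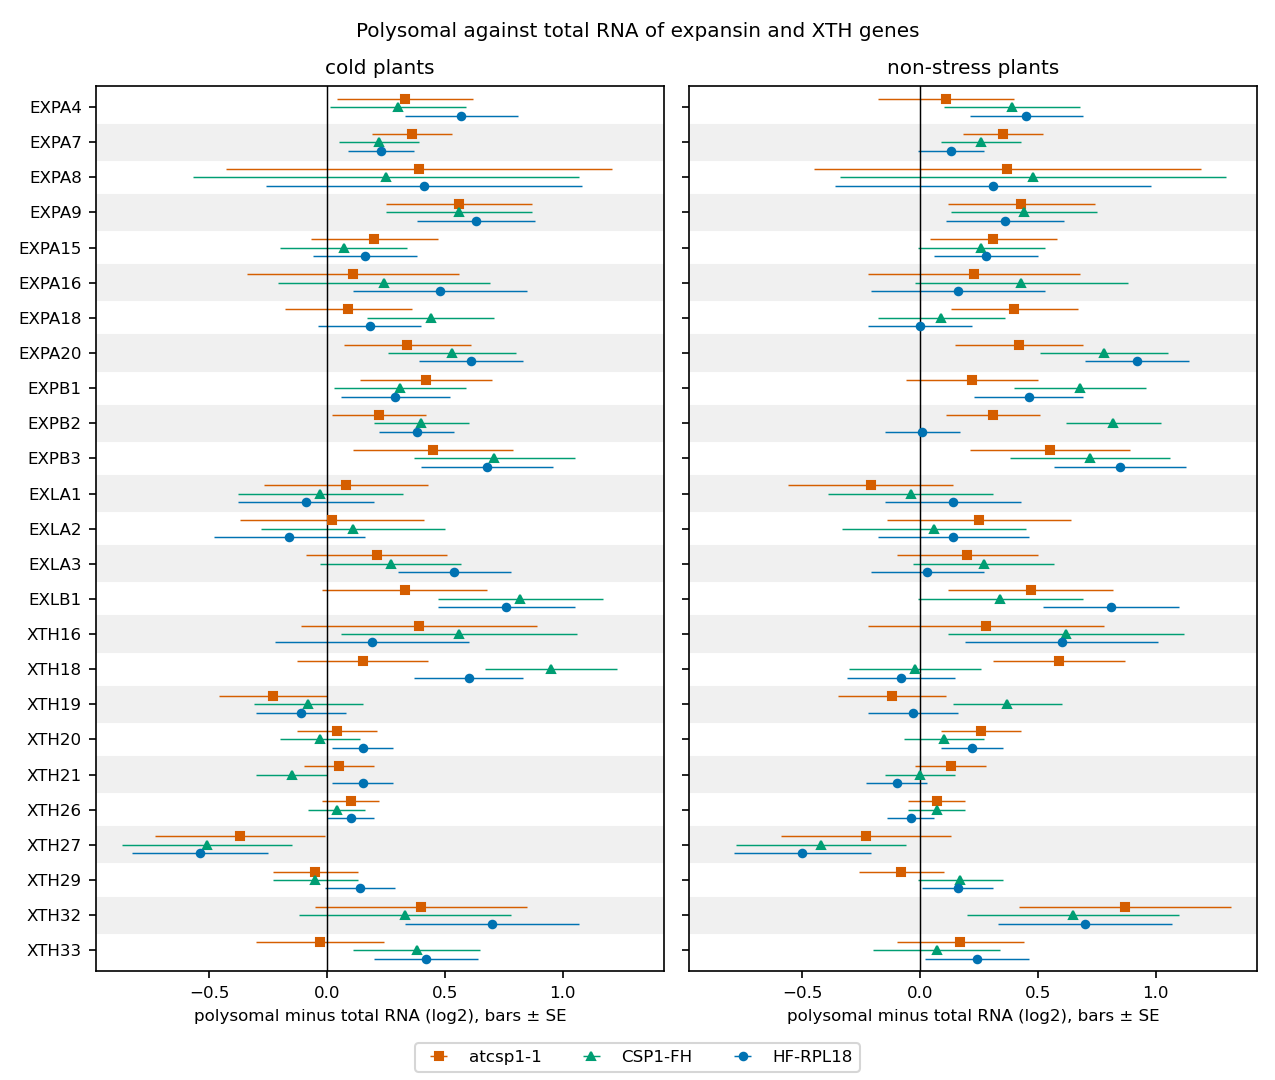
Polysomal minus total RNA difference (log2) of the 25 members in cold (left) and non-stress (right) plants, with 1 point per line (atcsp1-1 squares, CSP1-FH triangles, HF-RPL18 circles) and bars of ± SE from limma. Most expansins lie right of 0 in all groups, XTH27 lies left of 0 in all 6, and EXLA1 lies near 0.

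Cold did not detectably shift members between the pools. The cold response in polysomal RNA minus that in total RNA was called for 0 members in each line, against 0, 0 and 0.00440% of all probe sets in atcsp1-1, CSP1-FH and HF-RPL18. These adjusted shares are not comparable with counts at an unadjusted p below 0.05, whose share of all probe sets is not given here. In the same order 0, 1 and 1 members passed that mark, which is not read as a result about the members. XTH18 was that member, with 0.97 ± 0.39 in CSP1-FH (interval 0.16 to 1.78) and 0.68 ± 0.32 in HF-RPL18 (0.02 to 1.34), but -0.44 ± 0.39 in atcsp1-1 (-1.25 to 0.37), each at an adjusted p of 1. Intervals for EXLA1 ran from -0.73 to 1.31, -1.01 to 1.04 and -1.06 to 0.61, and the next largest values were 0.48 ± 0.50 for EXLB1 in CSP1-FH, -0.47 ± 0.64 for XTH32 in atcsp1-1 and 0.51 ± 0.34 for EXLA3 in HF-RPL18.

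The CSP1-IP arrays show which members' transcripts were recovered with the anti-CSP1 antibody more or less than others, relative to total RNA. Without a purification from atcsp1-1 or without the antibody, recovery with CSP1 and background recovery cannot be told apart. The GAPDH 3′ minus 5′ difference was 5.02 to 7.60 on these arrays, against 1.05 to 1.99 on total RNA arrays. The actin ranges overlapped. The part of labelled RNA length in the differences was not tested. EXPA4 and XTH27 were lower in CSP1-IP RNA of both lines and both conditions, while EXLA3 was higher there in cold plants of both lines and EXLA1 in non-stress HF-RPL18. Of these, only the EXPA4 calls were all kept under every setting and without any 1 array. Limma called 4 members in cold CSP1-FH (1 higher, 3 lower), 6 in cold HF-RPL18 (4 higher, 2 lower), 6 in non-stress CSP1-FH (2 higher, 4 lower) and 6 in non-stress HF-RPL18 (1 higher, 5 lower). Of all probe sets, 16.6% were called in cold CSP1-FH (7.76% higher, 8.88% lower), 45.6% in cold HF-RPL18 (26.4% higher, 19.2% lower), 25.3% in non-stress CSP1-FH (12.8% higher, 12.4% lower) and 22.2% in non-stress HF-RPL18 (9.8% higher, 12.4% lower). The members were called at 16% in cold CSP1-FH and 24% in the other 3, close to or under these shares. The median of all probe sets was itself 0.13 to 0.20 above 0, and that of the members was -0.07 to 0.20.

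EXPA4 gave 3.23 and 3.85 in CSP1-IP RNA of cold CSP1-FH, against 6.89 and 6.69 in its total RNA. In cold HF-RPL18 it gave 2.60, 2.96 and 4.45, against 6.37, 6.24 and 5.84. Non-stress CSP1-IP arrays gave 4.14 and 3.58 in CSP1-FH and 3.99, 3.50 and 4.72 in HF-RPL18, against 7.65 and 7.51, and 7.81, 7.94 and 7.06. Every CSP1-IP array was lower than every total RNA array, and 2 of the cold HF-RPL18 arrays were under the 3.10 mark. The differences were -3.24 ± 0.47 (adjusted p = 3.75e-05), -2.82 ± 0.38 (3.75e-06), -3.72 ± 0.47 (3.29e-06) and -3.53 ± 0.38 (2.80e-07), or 7.06-fold to 13.2-fold lower. All 4 calls were kept without any 1 array, under every other setting tried and with polysomal RNA as the reference.

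Level on the array moved with recovery over all probe sets. In the 25% of probe sets brightest in total RNA the median difference was -0.99 to -0.61, and in the 25% dimmest 0.26 to 0.57; the part of labelling and of background in this was not tested. EXPA4 lay below the 10th percentile of its own level class, 1 of 4 equal classes of total RNA level, in all 4 comparisons (-1.94, -1.31, -2.32 and -1.90 in the order above). XTH27, in the brightest class, gave 7.09 and 7.23 in cold CSP1-FH and 7.78, 7.61 and 8.28 in cold HF-RPL18 CSP1-IP RNA, against 9.29 and 9.51, and 9.60, 9.87 and 9.67 in total RNA. Its differences were -2.24 ± 0.59 and -1.82 ± 0.48 in cold and -2.04 ± 0.59 and -1.59 ± 0.48 in non-stress CSP1-FH and HF-RPL18 (adjusted p = 0.0101, 0.00367, 0.0126 and 0.0172). Only the first lay below that 10th percentile, and with loess normalization, which removes the trend with level, the values were -1.68, -0.99, -1.27 and -1.07 and none was called. With polysomal RNA as the reference only the cold HF-RPL18 call of XTH27 was kept. Except in cold HF-RPL18, the XTH27 calls were also lost on leaving out single arrays: either CSP1-IP array in cold CSP1-FH (adjusted p up to 0.138), CSP1-IP array 2 or total RNA array 1 in non-stress CSP1-FH (0.285), and any 1 of the CSP1-IP arrays in non-stress HF-RPL18 (0.149).

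**Figure D4:**
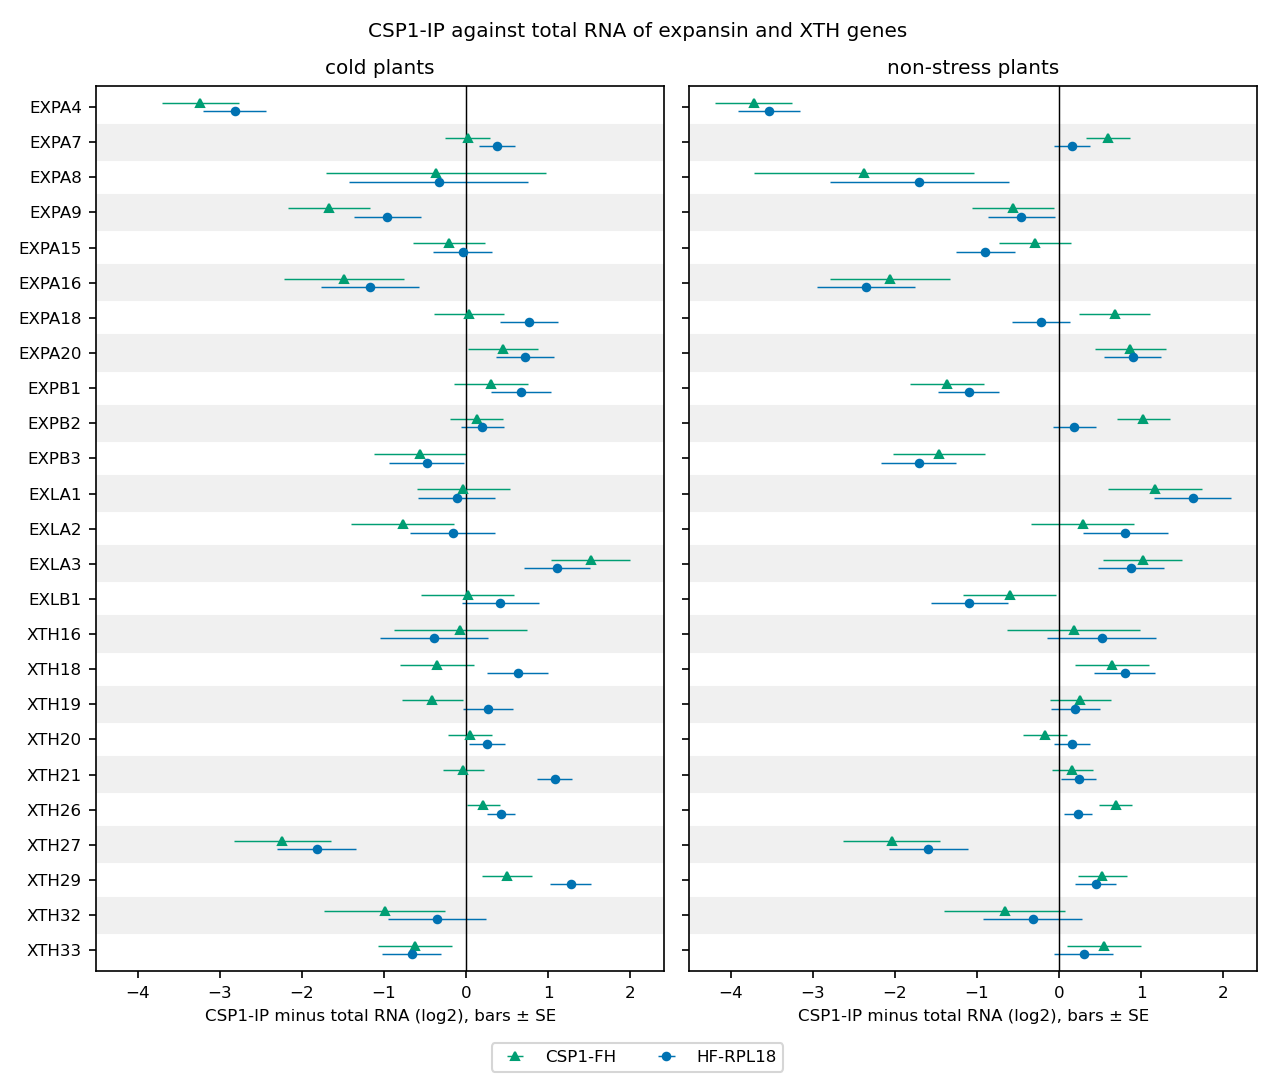
CSP1-IP minus total RNA difference (log2) of the 25 members in cold (left) and non-stress (right) plants of CSP1-FH (triangles) and HF-RPL18 (circles); bars are ± SE from limma. EXPA4 lies far left at -3.72 to -2.82 and XTH27 at -2.24 to -1.59, EXLA3 lies right of 0 in all 4 comparisons, and EXLA1 lies right of 0 in non-stress plants and near 0 in cold plants.

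Other expansins were lower in CSP1-IP RNA of non-stress plants. EXPA16 differed by -2.06 ± 0.73 in CSP1-FH (adjusted p = 0.0400) and -2.35 ± 0.60 in HF-RPL18 (0.00523), where CSP1-IP arrays gave 4.93, 4.85 and 4.14, against 7.25, 7.64 and 6.08 in total RNA. EXPB1 differed by -1.36 ± 0.45 (0.0277) and -1.1 ± 0.37 (0.0313), and EXPB3 by -1.71 ± 0.46 in HF-RPL18 (0.00754) and -1.46 ± 0.56 in CSP1-FH (0.0559). EXPA8 differed by -2.37 ± 1.34 and -1.70 ± 1.09, with neither called, and EXLB1 by -1.09 ± 0.47 in HF-RPL18 (0.0968). In cold plants these genes had fallen in total RNA and none was called in CSP1-IP against total RNA. In CSP1-FH and HF-RPL18, EXPA16 was at -1.49 ± 0.73 and -1.17 ± 0.60 and EXPB1 at 0.31 ± 0.45 and 0.67 ± 0.37. A difference in recovery between cold and non-stress plants was not tested. XTH32, which had not fallen in cold, was at -0.99 ± 0.74 in cold CSP1-FH and not called. EXPA9 was lower in cold CSP1-FH (-1.67 ± 0.50, adjusted p = 0.0239) and at -0.96 ± 0.41 in cold HF-RPL18 (0.0596).

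EXPA16 lay below the 10th percentile of its level class in non-stress HF-RPL18 (-1.90) but not in CSP1-FH (-2.32), where loess normalization gave -1.67 and no call (adjusted p = 0.116). EXPB3 in non-stress HF-RPL18 and EXPB1 in non-stress HF-RPL18 (-1.11) did not lie below it, while EXPB1 in non-stress CSP1-FH (-1.24) and EXPA9 in cold CSP1-FH (-1.15) did. Each of these 6 calls was lost on leaving out some single array. In non-stress CSP1-FH, EXPA16 was lost without either CSP1-IP array or total RNA array 2 (adjusted p up to 0.224) and EXPB1 without either CSP1-IP array or total RNA array 1 (0.206). In non-stress HF-RPL18, EXPA16 and EXPB3 were lost without CSP1-IP array 3 (0.0615 each) and EXPB1 without CSP1-IP array 1 or 3 or total RNA array 2 (0.183). EXPA9 was lost without either CSP1-IP array or total RNA array 1 (0.266).

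EXLA1 was higher in CSP1-IP RNA of non-stress HF-RPL18, at 6.16, 5.97 and 5.82, against 3.96, 4.83 and 4.27 in total RNA, with no overlap. The difference was 1.63 ± 0.47 (adjusted p = 0.0125), lost without any 1 of the CSP1-IP arrays (up to 0.0911), and 1.17 ± 0.57 in non-stress CSP1-FH (0.133). In cold plants, where EXLA1 was high in both pools, it was -0.03 ± 0.57 and -0.11 ± 0.47. EXLA3 gave 5.50 and 4.64 in CSP1-IP, against 3.65 and 3.45 in total RNA of cold CSP1-FH, and 5.13, 4.13 and 3.51, against 3.62, 2.96 and 2.85 in cold HF-RPL18. The arrays overlapped in cold HF-RPL18, where the CSP1-IP value of 3.51 lay below the total RNA value of 3.62. The differences were 1.52 ± 0.48 (0.0318) and 1.11 ± 0.40 (0.0242), with 1.02 ± 0.48 and 0.88 ± 0.40 in non-stress plants, and all 4 lay above the 90th percentile of their level class (0.96, 1.06, 0.89 and 0.56). The cold calls were lost with loess normalization (1.2 and 0.67) and with polysomal RNA as the reference (1.26 and 0.57). They were also lost without either CSP1-IP array or total RNA array 2 in CSP1-FH (up to 0.406), and without CSP1-IP array 1 or total RNA array 3 in HF-RPL18 (0.233).

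The remaining calls were of probe sets near background in total RNA. XTH29 was at 4.67, 3.08 and 4.32 in CSP1-IP and 3.01, 2.62 and 2.60 in total RNA of cold HF-RPL18 (1.28 ± 0.25, adjusted p = 0.000223), and XTH21 at 3.92, 3.05 and 3.74, against 2.57, 2.45 and 2.46 (1.08 ± 0.21, 0.000216). With loess normalization the XTH29 call was kept and the XTH21 call was lost (0.50, adjusted p = 0.0658). XTH26 differed by 0.43 ± 0.17 there (0.0380), less than the median of 0.57 in its level class, and by 0.69 ± 0.20 in non-stress CSP1-FH (0.0137), and both calls were lost with loess, at -0.12 in HF-RPL18 and 0.26 in CSP1-FH. EXPB2 differed by 1.03 ± 0.32 in non-stress CSP1-FH (0.0197) and by 0.21 with polysomal RNA as the reference or 0.68 with loess, neither called. XTH26 was lost in HF-RPL18 without CSP1-IP array 2 or 3 or total RNA array 1 (up to 0.306), and XTH26 and EXPB2 in CSP1-FH without either CSP1-IP array (0.203 and 0.156).

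Within the CSP1-IP pool, cold against non-stress was called for 0 members in CSP1-FH, against 0.312% of all probe sets (0.233% higher, 0.0791% lower). There 3 members had an unadjusted p below 0.05, which is not comparable with that adjusted share. The share of all probe sets at this mark is not given here, so the count is not read as a result about the members. In HF-RPL18 cold against non-stress was called for 1 member, against 3.94% of all probe sets (1.57% higher, 2.37% lower). That member was EXLA1, at 8.25, 7.91 and 8.71 in cold and 6.16, 5.97 and 5.82 in non-stress HF-RPL18 CSP1-IP RNA. Its cold arrays all lay higher, by 2.31 ± 0.61 (adjusted p = 0.0324). The call was lost without cold array 3 or any 1 of the non-stress arrays (0.081 to 0.160). In CSP1-FH it gave 8.23 and 8.29 in cold and 5.04 and 6.36 in non-stress plants (2.56 ± 0.75, adjusted p = 0.215). EXLA3 differed by 1.43 ± 0.63 in CSP1-FH, and EXLA2 by 1.15 ± 0.67 and XTH27 by 0.99 ± 0.62 in HF-RPL18, none of them called.

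Few other wall genes had a named probe set: 1 of 11 for cellulose synthesis, 1 of 9 for xyloglucan synthesis, 2 of 10 for pectin modification and 2 of 9 for wall sensing. COB, which orients cellulose deposition, rose in cold in 5 of 6 comparisons, by 0.69 to 1.03, and differed by 0.54 ± 0.21 in atcsp1-1 total RNA (adjusted p = 0.0796). The pectin methylesterase PME41 rose in all 6, by 1.46 to 2.51, and PME35 fell in 5, by 0.96 to 1.23, and differed by -0.65 ± 0.35 in CSP1-FH polysomal RNA. CSLC4, a xyloglucan backbone synthase, fell in total RNA of atcsp1-1, CSP1-FH and HF-RPL18, by 0.85, 0.69 and 0.59. The wall-sensing receptor kinase FERONIA (FER) rose in HF-RPL18 total RNA alone (1.26 ± 0.38, adjusted p = 0.0165), with 0.82 to 1.21 in the other 5, and THE1 was at -0.81 to -0.26 with none called. As a check of the treatment, 4 of 10 cold acclimation genes were measured. The dehydrin gene COR47 rose by 3.62 to 4.57 and LTI30 by 6.09 to 8.27 in all 6. In total RNA of atcsp1-1, CSP1-FH and HF-RPL18, COR15A rose by 2.06, 2.47 and 2.21 and COR15B by 1.81, 2.21 and 1.85. COR15A was not called in polysomal RNA of atcsp1-1 (1.22 ± 0.54, adjusted p = 0.182) or CSP1-FH (1.59 ± 0.54, 0.075). In CSP1-IP against total RNA, FER was lower in all 4 comparisons, by 2.54 to 3.91, as was COB, by 1.16 to 1.92. Both were in the brightest class of total RNA level, whose 10th percentile was -2.32 to -1.90. FER lay below that percentile in all 4 comparisons and COB in none. The leaf marker LHCB4.1, also bright, was called lower in all 4 too, at -1.07 to -0.65.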

How the data were processed

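Values were the authors' deposited log2 expression values from Affymetrix ATH1 arrays, made with RMA per the submitters' processing notes; neither its version nor the grouping of arrays for normalization is stated. RMA brings arrays that are normalized together towards 1 distribution, so differences are relative to each array's whole. The probe set values did not fully share 1 distribution. Their SD on an array was 1.834 to 2.139 for CSP1-IP, 2.273 to 2.317 for total and 2.225 to 2.308 for polysomal RNA. Of 22810 probe sets, 64 controls were left out and 22746 were tested, of which 13513 (59.4%) had 1 named gene. Gene names came from the platform annotation and neighbours from RefSeq's gene table.

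All 16 groups entered 1 limma model (limma 3.58.1, R 4.3.3) with a variance weight per RNA pool (1.79 for total, 1.24 for polysomal and 0.327 for CSP1-IP RNA), since CSP1-IP arrays varied more. Contrasts were tested with eBayes, p-values were adjusted by Benjamini-Hochberg over 22746 probe sets, and a call is an adjusted p below 0.05. Errors are SE of the fit, which depend on the number of arrays in a group, the weight of its RNA pool and the spread of each probe set. The choice of these families as members, the lists and the tests was made with earlier results of these data known. All called members are named, with the 2 largest differences not called for most comparisons.

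Arrays of the same number deviated together in HF-RPL18: the correlations of their deviations were 0.31 to 0.5 for cold total RNA, 0.35 to 0.49 for cold polysomal RNA and 0.49 to 0.73 over both polysomal to total comparisons. There the paired value stands beside a result whose call it changes. In atcsp1-1 and CSP1-FH these correlations were 0.15 to 0.59 over 2 pairs, too few to settle a pairing, and the paired results are in the closing section. The design text calls the replicates biological, without saying how the plants were grown apart. Alternatives were cyclic loess normalization, equal weights, a filter on dim probe sets, the replicate number as a block, polysomal RNA as the reference, a fit without CSP1-IP arrays and leaving out each array. Other background corrections and scan dates could not be tried on these values.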

Additional observations from a re-analysis of the deposited data

How the results depend on the processing

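Of the 87 calls of members, 47 were kept whichever array was left out: 23 of 37 for cold in total RNA, 17 of 25 for cold in polysomal RNA, 0 of 1 for cold in CSP1-IP RNA, 0 of 2 for polysomal against total RNA and 7 of 22 for CSP1-IP against total RNA. Counts of members called, on leaving out 1 array, ran from 8 to 10 (atcsp1-1), 7 to 11 (CSP1-FH) and 9 to 13 (HF-RPL18) for cold total RNA, 5 to 7, 5 to 6 and 9 to 12 for cold polysomal RNA, and 0 to 0 (CSP1-FH) and 0 to 3 (HF-RPL18) for cold CSP1-IP RNA. For polysomal against total RNA they were 0 to 1 in cold CSP1-FH and HF-RPL18, 0 to 1 in non-stress CSP1-FH and 0 to 3 in non-stress HF-RPL18. For CSP1-IP against total RNA they were 1 to 3 and 5 to 6 in cold CSP1-FH and HF-RPL18, and 1 to 6 in each non-stress line. With equal weights for all arrays the counts were 7 for cold total RNA of atcsp1-1, 6 for that of CSP1-FH, 2 and 6 for cold CSP1-IP RNA of CSP1-FH and HF-RPL18, 0 for both non-stress polysomal comparisons of CSP1-FH and HF-RPL18, and 10 for CSP1-IP in cold HF-RPL18 and in both non-stress lines. With the replicate number as a block they were 12 and 13 for cold polysomal RNA of atcsp1-1 and CSP1-FH, 1 and 5 for polysomal against total RNA in cold CSP1-FH and HF-RPL18, and 2 in each non-stress line of these. Calls over all probe sets rose as well, to 16.5% and 13.4% from 10.4% and 7.93% in the first 2 of these comparisons. The block shares of all probe sets in the others were 5.81%, 22.6%, 10.1% and 14.5%. With numbers shared across lines, a setting chosen after seeing the data, they were 11, 13, 1, 2, 2 and 2 in the same order, and 1 for cold CSP1-IP RNA of CSP1-FH. With loess they were 3 and 2 for polysomal against total RNA in cold and non-stress HF-RPL18, and 2, 2 and 3 for CSP1-IP in cold CSP1-FH, cold HF-RPL18 and non-stress CSP1-FH. Polysomal RNA as the reference gave 2 in cold CSP1-FH. Except for the block, the shares of all probe sets under these settings are not given here. Those counts are therefore not read as results about the members. The sign turned for XTH26 in CSP1-IP of cold HF-RPL18 with loess (-0.12, adjusted p = 0.63), and for differences that were never called: EXPA8 in atcsp1-1 against HF-RPL18 cold total RNA with the block (0.13), in non-stress polysomal RNA without 1 array (-0.26 to 1.39), and in the cold response of polysomal RNA of CSP1-FH minus HF-RPL18 (-1.48 to 0.06), and EXLB1 between pools in CSP1-FH (-0.01 to 0.97). With the block, a difference between lines is taken at the fitted level of array 1 in each line, not over the arrays of a group. The EXPA8 value of 0.13 is therefore not the same quantity as the main one. The cause of the other turns was not tested. The filter on dim probe sets turned no sign and ended no call of a named member, and the fit without CSP1-IP arrays turned no sign but ended 9 calls of EXPA8, EXPA9, EXPA16, EXLB1 and XTH19. Equal weights ended 18, loess 10 beside the turned XTH26, and polysomal RNA as the reference 7. In atcsp1-1 and CSP1-FH, where 2 pairs do not settle a pairing, the block added calls of EXPB3 in total and EXPA4, EXPA9, EXPB3, EXLA3 and XTH27 in polysomal RNA of atcsp1-1, of EXPA15, XTH27 and XTH32 in total and EXPA4, EXPA8 (adjusted p = 0.00481), EXPA15, EXPA16, EXPB3 and EXLA3 in polysomal RNA of CSP1-FH for cold, and in CSP1-FH of XTH18 in cold and EXPA20 in non-stress plants for polysomal against total RNA and EXPB3 in non-stress plants for CSP1-IP. For CSP1-IP in HF-RPL18 it added EXPA9 in cold and EXPA15 in non-stress plants and ended XTH26 in cold plants (0.0586). Depth is not defined for arrays; 7 members lay at or under the dim level in some groups, and falls towards it have a floor.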

Other observations

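Array numbers marked a shared shift across lines, which the labels do not explain. Array 2 minus array 1 correlated between lines over all probe sets at 0.55 to 0.57 in non-stress total RNA, 0.29 to 0.55 in cold total RNA, 0.30 to 0.47 in non-stress polysomal RNA and 0.30 to 0.39 in cold polysomal RNA, given as a description since probe sets of 1 array are not independent. Among the members, EXPA8 was higher on non-stress total RNA array 2 than on array 1 by 1.56 in atcsp1-1, 2.11 in CSP1-FH and 3.01 in HF-RPL18. XTH27 was lower on array 2, with differences of -0.89, -0.94 and -0.98, and so was XTH32, with -0.83, -1.04 and -1.3 in the same lines. In cold plants the EXPA8 differences were 0.20 in atcsp1-1, -0.37 in CSP1-FH and 0.32 in HF-RPL18.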
